A study of Homo sapiens with 12 samples.

Results

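ChREBP (MLXIPL), its heterodimer partner MLX and 5 genes of hepatic sugar and lipid handling, PKLR, GCKR, KHK, PNPLA3 and TM6SF2, were followed in HepG2 cells over a time course of insulin. HepG2 is a line from a human liver tumour. The 7 genes were taken by name from the 26364 genes of the count table, and they were selected on their readout at 240 min against 0 min of insulin, in particular on a lower level of MLXIPL beside its targets. Their values at 240 min are therefore given as a description, counts of calls at that time support nothing about the 7, and all 7 passed the filter on low counts, with 13852 genes tested in all.

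RNA-seq was available at 0, 5, 10, 30 and 240 min after insulin, with 2 libraries at each time and 10 in all, and a single chromatin immunoprecipitation library for the insulin receptor (IR) gave a list of 1971 peaks. All libraries were labelled as HepG2, with no genetic modification named, grown in EMEM with 10% serum. The text deposited with the RNA-seq libraries gives 16 h in EMEM and then 3 nM insulin for 5 min for each of them, the 0 min libraries included, so the times used here come from the library titles. The text deposited with the IR library describes RNA extraction, 2 days with insulin and BSA, a 30 min washout and 3 nM insulin, so the texts of both assays may have been exchanged and the pretreatment of either could not be settled. No library was labelled as given another amount of glucose or fructose. The labels do not say whether the 2 libraries of a time came from separate cultures, and p-values measure only the spread between them.

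Library depth ran from 18347109 to 45005769 counts on genes, the deepest being replicate 2 at 0 min. The hepatocyte markers ALB, AFP, APOA1, APOA2, TTR, SERPINA1, FGB and TF were all present, with summed levels of 32270 to 42960 CPM, which are counts scaled to a common library size. Of 12 markers of other liver cells, the leukocyte gene PTPRC was at 0 in every library and CLEC4F, CFTR and CD3E did not pass the filter, with at most 10 counts in a library. PECAM1, VWF, LYVE1 and COL1A1 passed it at low levels, from 0.418 to 3.98 CPM. RELN, KRT19, ACTA2 and CD68 were expressed, RELN at 4119 to 5285 CPM. The summed level of the 12 was 4658 to 5466 CPM at 0 min and 4566 to 4797 CPM at 240 min, most of it from RELN. In bulk RNA, fewer cells that express a gene and less of its RNA per cell cannot be told apart.

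ChREBP is a transcription factor that is activated by sugar metabolites in hepatocytes. It binds DNA together with MLX at carbohydrate response elements, which hold a pair of E-box-like motifs, and it drives genes of glycolysis, fructolysis and lipogenesis. Insulin acts on many of the same genes through SREBP-1c and FOXO1. The liver isoform of pyruvate kinase (PKLR) is a classical ChREBP target, ketohexokinase (KHK) phosphorylates fructose, GCKR encodes a regulatory protein of hepatic sugar metabolism, and PNPLA3 and TM6SF2 are proteins of the lipid droplet and of VLDL lipidation.

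The DNA upstream of the genes was examined for the motif that ChREBP and MLX recognise. RefSeq windows of 250 bases before and 50 after a start site (GRCh38.p14) were given for 5 of the 7 genes, MLXIPL, MLX, PKLR, GCKR and TM6SF2, with 6 windows because PKLR has 2 start sites. The E-box CACGTG, which reads the same on both strands, was found in 2 windows, that of MLX and the upstream one of PKLR, compared with 7.26% of 35116 RefSeq windows. A pair of loose E-boxes 5 letters apart (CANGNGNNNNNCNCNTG, also the same on both strands, and including any exact pair) was found in 1 window, the downstream one of PKLR, which serves the liver isoform, compared with 0.56% of all windows. An exact pair, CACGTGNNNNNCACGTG, was in 0 of the 6 and in 2 of all windows. The 250 bases upstream of the start site are shown for the genes with a match and, as the gene that gives the factor, for MLXIPL, 5′ to 3′ on the strand of the gene, with matches in capitals. A match is a description of the letters and not a bound site.
MLXIPL (chr7:73624523-73624772, minus strand): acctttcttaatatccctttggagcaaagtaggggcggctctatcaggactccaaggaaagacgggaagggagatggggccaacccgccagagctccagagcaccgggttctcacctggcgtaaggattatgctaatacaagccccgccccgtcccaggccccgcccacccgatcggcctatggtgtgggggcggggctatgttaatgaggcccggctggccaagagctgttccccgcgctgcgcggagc
MLX (chr17:42566850-42567099, plus strand): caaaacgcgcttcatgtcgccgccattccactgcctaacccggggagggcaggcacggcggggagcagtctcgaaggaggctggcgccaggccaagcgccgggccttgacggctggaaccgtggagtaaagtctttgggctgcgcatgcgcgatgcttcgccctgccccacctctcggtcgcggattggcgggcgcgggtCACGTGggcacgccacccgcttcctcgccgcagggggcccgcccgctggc
PKLR upstream start (chr1:155301439-155301688, minus strand): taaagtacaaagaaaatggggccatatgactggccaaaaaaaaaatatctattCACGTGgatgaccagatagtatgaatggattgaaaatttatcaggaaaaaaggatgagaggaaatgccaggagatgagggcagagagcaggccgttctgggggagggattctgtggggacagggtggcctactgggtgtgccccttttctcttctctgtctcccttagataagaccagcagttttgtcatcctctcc
PKLR downstream start (chr1:155300953-155301202, minus strand): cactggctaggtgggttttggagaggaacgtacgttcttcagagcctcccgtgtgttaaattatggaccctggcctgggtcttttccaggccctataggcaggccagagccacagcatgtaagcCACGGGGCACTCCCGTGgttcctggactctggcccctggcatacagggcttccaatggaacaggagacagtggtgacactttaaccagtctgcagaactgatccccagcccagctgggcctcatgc
The E-box of MLX lay 50 to 45 bases before the start site, that of PKLR 197 to 192 bases before the upstream start, and the loose pair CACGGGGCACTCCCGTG 126 to 110 bases before the downstream start. No match was found in the windows of MLXIPL, GCKR and TM6SF2.

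The order of the 7 genes was read from TPM, transcript abundances scaled for transcript length and library size. MLXIPL was highest, with a median of 70.1 TPM over the 10 libraries (range 62.9 to 81.3). MLX followed at 48.0 TPM (42.7 to 52.2) and KHK at 43.1 TPM (39.5 to 49.3), with ranges that overlapped each other but not that of MLXIPL. PNPLA3 at 27.8 TPM (22.4 to 35.1), PKLR at 23.3 TPM (20.3 to 25.7) and GCKR at 21.3 TPM (16.7 to 21.8) formed a middle group in which neighbouring ranges overlapped. TM6SF2 was lowest at 3.24 TPM (2.40 to 4.66). MLXIP, which encodes the ChREBP paralogue MondoA, had a median of 19.9 TPM (18.0 to 20.5), below every value of MLXIPL.

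At 240 min MLXIPL and GCKR were at their lowest levels of the time course and PNPLA3 and, at low counts, TM6SF2 at their highest. MLX was lowest at 10 min, while the means of PKLR and KHK at 240 and 0 min differed by less than their 240 min replicates did. At 5 min both libraries of each of the 7 genes but PKLR lay below those of 0 min, MLX by very little in replicate 2. At 10 min those of MLX and KHK lay below and those of GCKR above. The share of all genes that did so at these times was not counted. For KHK the unadjusted p was 0.077 at 5 min and 0.088 at 10 min (edgeR quasi-likelihood test). The levels of the 7 genes in each library are given as CPM after TMM scaling, and the 2 values of a time are those of replicates 1 and 2. MLXIPL (chr7:73007524-73038870 in hg19, minus strand) was at 94.4 and 96.7 CPM before insulin, 90.7 and 89.2 (5 min), 108 and 95.2 (10 min), 106 and 92.4 (30 min), and 84.1 and 81.0 (240 min). The 240 min libraries were the lowest of the 10 and did not overlap with any other time, whereas the replicates at 10 and 30 min lay farther apart than those at the other times. The mean was 95.5 ± 1.58 CPM at 0 min and 82.5 ± 2.19 CPM at 240 min (SD, n = 2), a log2 fold change of -0.21 with a standard error of 0.065, or 13.6% lower (percent change -13.6). Against 30 min the log2 difference at 240 min was -0.27.

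MLX (chr17:40719078-40725221, plus strand) gives the obligate DNA-binding partner of ChREBP. It was at 49.1 and 46.8 CPM before insulin, 46.0 and 46.8 (5 min), 40.8 and 41.4 (10 min), 42.2 and 42.5 (30 min), and 43.9 and 45.2 (240 min). In CPM the 10 min libraries were the lowest of the 10 and replicate 1 at 0 min the highest, while replicate 2 at 0 min was level with replicate 2 at 5 min. In TPM replicate 2 at 240 min was the highest (52.2 TPM). Replicate 1 at 30 min (43.2 TPM) then lay between the 10 min libraries (43.6 and 42.7 TPM). Replicate 2 at 30 min (48.6 TPM) lay just below the 0 min libraries (48.7 and 49.5 TPM), so in TPM the 30 min replicates disagreed. At 240 min the log2 fold change from 0 min was -0.10 (SE 0.056) in CPM, while in TPM it was 0.03, with means of 49.1 ± 0.569 TPM at 0 min and 50.2 ± 2.84 TPM at 240 min (SD, n = 2), so no direction can be given.

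PKLR (chr1:155259084-155271225, minus strand) catalyses the last step of glycolysis in liver. It was at 28.2 and 28.7 CPM before insulin, 26.3 and 29.2 (5 min), 29.8 and 25.9 (10 min), 30.8 and 24.1 (30 min), and 30.3 and 23.8 (240 min). The replicates at 240 min lay on both sides of the 0 min libraries, so no difference was seen beyond the spread between replicates (log2 fold change -0.06, SE 0.11). The estimate was -0.26 without replicate 1 at 240 min and 0.09 without replicate 2, which changes its direction.

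KHK (chr2:27309611-27323619, plus strand), the first enzyme of fructolysis, varied in the same libraries as PKLR. It was at 44.7 and 47.6 CPM before insulin, 40.7 and 42.3 (5 min), 41.5 and 41.8 (10 min), 47.9 and 37.9 (30 min), and 45.3 and 38.7 (240 min). Replicate 1 at 240 min overlapped with the 0 min libraries and replicate 2 lay below them (log2 fold change -0.14, SE 0.086). Without replicate 1 at 240 min it was -0.26 and without replicate 2 it was -0.03. The summed hepatocyte markers were also lower in replicate 2 at both late times, with 40980 and 32830 CPM (30 min) and 41490 and 32270 CPM (240 min), against 41930 and 41820 CPM before insulin, and their part in the spread of PKLR and KHK was not tested.

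GCKR (chr2:27719706-27746550, plus strand) had a pattern like that of MLXIPL. It was at 19.5 and 19.8 CPM before insulin, 17.3 and 18.6 (5 min), 19.96 and 20.15 (10 min), 19.8 and 19.2 (30 min), and 15.2 and 15.9 (240 min). The 240 min libraries were the lowest of the 10, and the mean went from 19.6 ± 0.224 to 15.6 ± 0.495 CPM (SD, n = 2), a log2 fold change of -0.34 (SE 0.079) and the lowest of the 7.

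PNPLA3 (chr22:44319619-44343448, plus strand), a lipid droplet hydrolase and acyltransferase, was highest at the time when MLXIPL and GCKR were lowest. It was at 34.6 and 32.2 CPM before insulin, 31.1 and 31.0 (5 min), 33.0 and 28.7 (10 min), 29.1 and 25.3 (30 min), and 37.8 and 39.0 (240 min). The 240 min libraries were the highest of the 10. The log2 fold change at 240 min was 0.21 from 0 min (SE 0.076) and 0.49 from 30 min (SE 0.080), the latter 40.4% higher. TM6SF2 (chr19:19375174-19384074, minus strand), which promotes lipid loading of VLDL, was at 2.09 and 2.16 CPM before insulin, 2.02 and 1.58 (5 min), 2.22 and 1.83 (10 min), 2.15 and 2.09 (30 min), and 2.24 and 2.89 (240 min). Its libraries held only 33 to 96 counts, and the log2 fold change at 240 min of 0.25 had a standard error of 0.20 and was 0.07 without replicate 2 at 240 min and 0.44 without replicate 1.

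**Figure D1:**
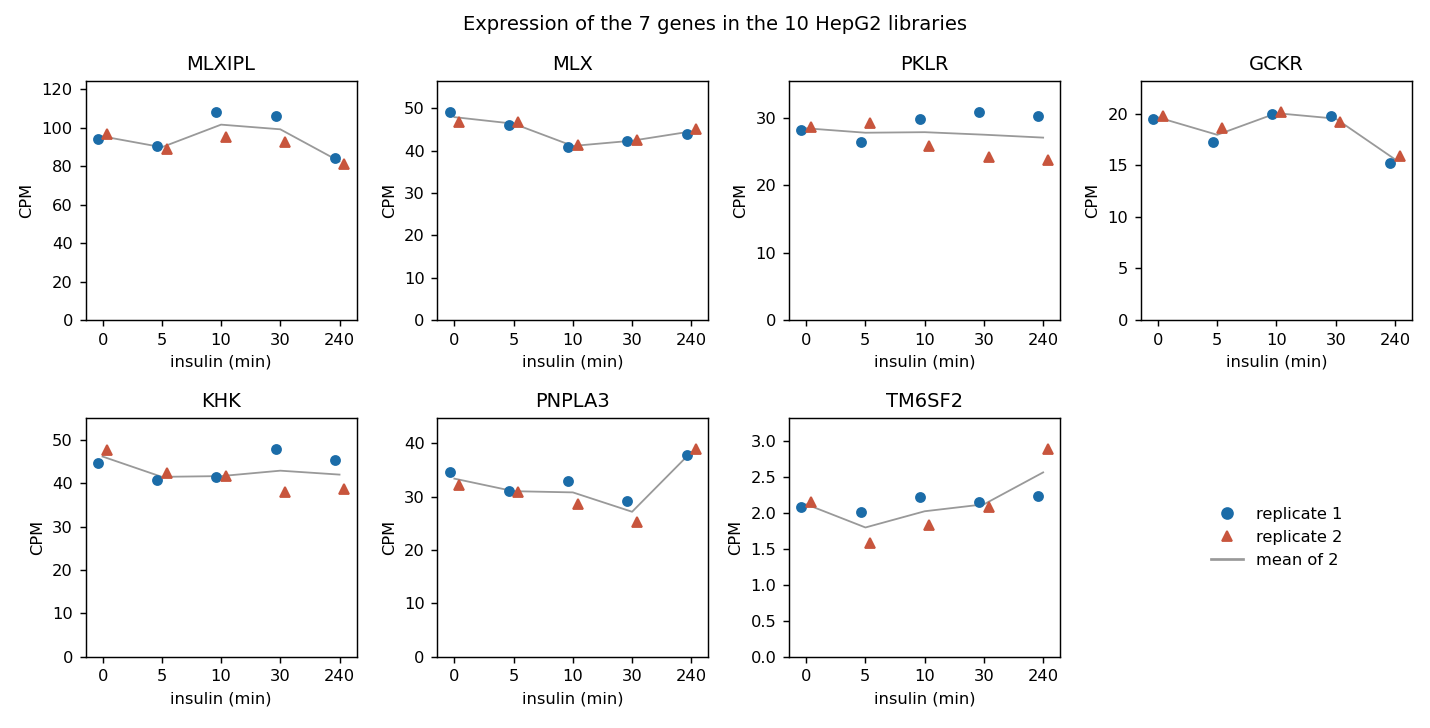
Level of each of the 7 genes in CPM (vertical axes from 0) at each time of insulin in min (horizontal axes, times spaced evenly); circles and triangles are replicates 1 and 2 and the line joins the means. MLXIPL and GCKR were lowest and PNPLA3 and TM6SF2 highest at 240 min, while the replicates of PKLR and KHK lay apart at 30 and 240 min.

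Of the 7 genes, 3 (42.9%) had an adjusted p under 0.05 at 240 min with edgeR's quasi-likelihood test, MLXIPL and GCKR on the lower side and PNPLA3 on the higher side, beside 41.0% of all genes tested. Over all genes 20.6% were higher and 20.4% lower. The libraries of 240 and 0 min did not overlap for 5 of the 7 genes (71.4%), MLXIPL, MLX and GCKR below and PNPLA3 and TM6SF2 above, beside 69.7% of all genes. These counts come from the comparison that selected the genes, and nothing is read from them. The median log2 fold change of the 7 was -0.10, and that of all genes -0.00257.

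Scaling the libraries by their ERCC spike-in totals in place of TMM lowered the median of all genes at 240 min to -0.12. On that scale MLXIPL was at -0.33, GCKR at -0.45 and PNPLA3 at 0.08, and 0 of the 7 had an adjusted p under 0.05. DESeq2 gave 2 of the 7, without PNPLA3, and limma on log2(TPM + 1) gave 1, GCKR. Leaving out replicate 2 at 0 min or replicate 2 at 240 min left 1, GCKR, and leaving out replicate 1 at 240 min left 2.

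**Figure D2:**
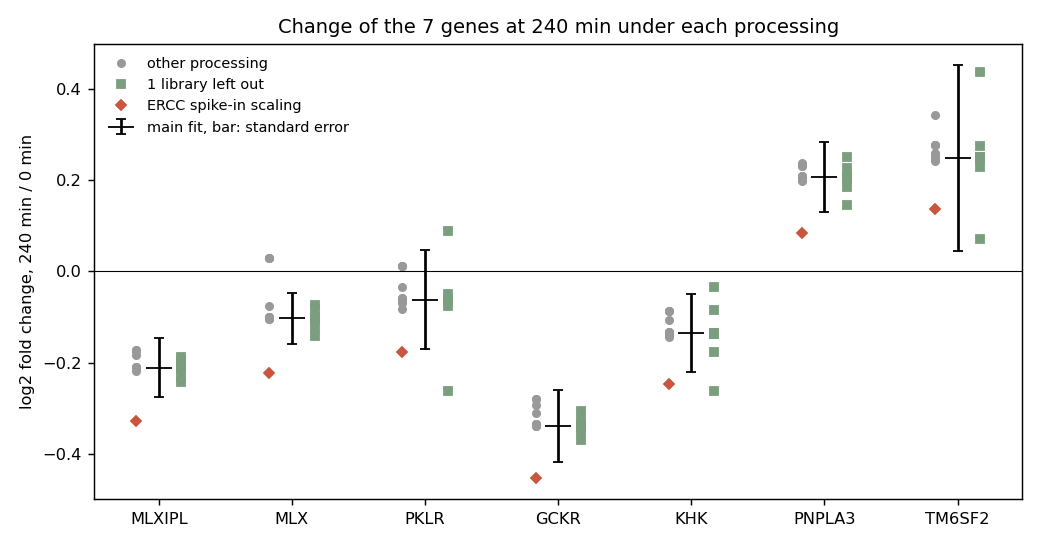
Log2 fold change at 240 min against 0 min (vertical axis) of the 7 genes; the black mark with its bar is the value with TMM and its standard error, circles are other processing, squares fits with 1 library left out, and diamonds ERCC scaling. MLXIPL, GCKR and KHK (at most -0.03) stayed below 0 and PNPLA3 and TM6SF2 above 0 in every one of these fits. PKLR and MLX lay on both sides of 0. All fits repeat the comparison that selected the genes, so a constant sign is a description only.

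The members were also set against MLXIPL within each library, as the ratio of their counts, which does not depend on library scaling. PNPLA3 counts were 36.7% and 33.3% of MLXIPL counts before insulin, 27.5% and 27.3% after 30 min, and 45.0% and 48.1% after 240 min. The 240 min ratios were above those of all other times and the 30 min ratios below them. The genes were selected on MLXIPL at 240 min beside its targets, so the 240 min ratios are a description only. GCKR counts were 20.6% and 20.5% of MLXIPL counts before insulin, compared with 18.1% and 19.7% after 240 min. These late ratios lay below both values before insulin. They overlapped, however, with the ratios of every early time: 19.1% with 20.9% (5 min), 18.5% with 21.2% (10 min), 18.7% with 20.8% (30 min). A fall of GCKR relative to MLXIPL could therefore not be told from the spread between replicates. For PKLR, 29.8% and 29.7% at 0 min compared with 36.0% and 29.4% at 240 min, which overlapped. For KHK, 47.3% and 49.3% compared with 53.9% and 47.8%, which overlapped as well. MLX counts were 52.0% and 48.4% of those of MLXIPL before insulin, 37.8% and 43.5% after 10 min, and 52.2% and 55.8% after 240 min. TM6SF2 stood at 2.21% and 2.23% at 0 min and at 2.66% and 3.57% at 240 min.

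**Figure D3:**
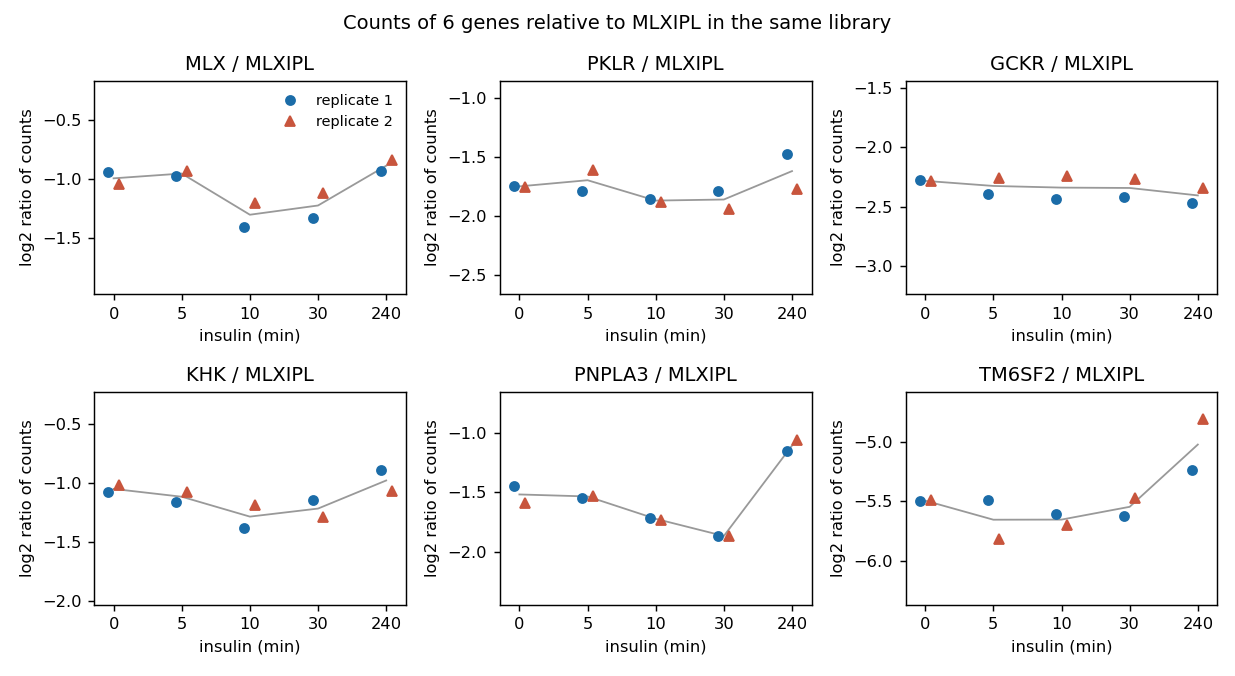
Log2 ratio of the counts of 6 genes to those of MLXIPL in the same library (vertical axes, all of the same height) at each time of insulin in min; circles and triangles are replicates 1 and 2 and the line joins the means. PNPLA3 went from 27.5% and 27.3% of MLXIPL at 30 min to 45.0% and 48.1% at 240 min. The genes were selected on MLXIPL at 240 min, so the ratios of that time are a description only.

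The difference among 5, 10 and 30 min was the only comparison whose contrast held none of the libraries named for the selection. The members were chosen with earlier results of these data known, so these 3 times may also have informed the choice. The p-values of this comparison are therefore a description and not a test independent of the selection. The spread in the model was estimated from all 10 libraries, and a fit of the 3 times alone also called 0 of the 7, with 60 genes called in place of 56. With edgeR's quasi-likelihood F test, 0 of the 7 genes had an adjusted p under 0.05, beside 0.404% of all genes. At an unadjusted p under 0.05 there were 2 of the 7, beside 10.3% of all genes. For MLX, p was 0.018 and adjusted p 0.388, with means of 46.4, 41.1 and 42.4 CPM. For MLXIPL, p was 0.031 and adjusted p 0.435, with means of 89.9, 102 and 99.2 CPM. PNPLA3 had p of 0.060 and adjusted p of 0.509, with means of 31.0, 30.8 and 27.2 CPM. DESeq2 and limma also called 0 of the 7.

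The 3 early times were then compared with 0 min, whose libraries are shared by the comparisons and by the selection. At 5 min 0 of the 7 had an adjusted p under 0.05 with edgeR, beside 0% of all genes, and 0 of the 7 at an unadjusted p under 0.05, beside 14.3% of all genes. At 10 min it was 0 of 7, beside 0.137% of all genes, and 1 at an unadjusted p under 0.05, beside 5.13%. This was MLX, with a log2 fold change of -0.22 (SE 0.056, edgeR adjusted p = 0.272) and both replicates below both 0 min replicates. At 30 min it was again 0 of 7, beside 0.332%, and 2 at an unadjusted p under 0.05, beside 8.12%. MLX had a log2 fold change of -0.17 (SE 0.056, edgeR adjusted p = 0.362) from counts, while in TPM its 30 min replicates disagreed. PNPLA3 had -0.28 (SE 0.078, edgeR adjusted p = 0.214), with both replicates below 0 min, and its adjusted p was 0.032 when genes with low counts were not filtered. DESeq2 and limma called 0 of the 7 at each of these times.

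Other genes of the pathways were taken from 6 lists and described at 240 min with the quasi-likelihood fit of edgeR, with rises and falls read at an adjusted p under 0.05 over all genes, a threshold that 41.0% of all genes passed. The lists were chosen with earlier results of these data known, so their shares support nothing about the pathways. The ERCC scaling shifts each of the following medians down by about the same amount as that of all genes. Among 8 partners of the ChREBP network, all tested, 2 rose and 4 fell (75.0%), with a median log2 fold change of -0.23. With ERCC scaling 2 of the 8 were called. MXD4 and MXI1, which encode repressors that pair with MAX, fell by 0.68 (SE 0.066) and 0.50 (SE 0.082) on the log2 scale. MGA and MXD1, a dual-specificity factor and another MAX partner, each rose by 0.19 (SE 0.049 and 0.067), but neither passed the test with ERCC scaling and MXD1 did not with DESeq2 or without a filter on low counts.

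Among 19 sugar-induced targets of ChREBP, 15 were tested, of which 7 rose and 4 fell (73.3%), with a median of 0.15. The 11 calls became 4 with ERCC scaling, 7 with DESeq2 and 6 with limma on TPM. GPD1, which links glycolysis to glycerol 3-phosphate, rose by 0.84 (SE 0.076), and BHLHE40, a transcriptional repressor, rose by 0.49 (SE 0.13), the latter not past the test with ERCC scaling. G6PC, the final enzyme of glucose release, fell by 2.07 (SE 0.21) on the log2 scale, and TXNIP, an arrestin-like inhibitor of glucose uptake, fell by 0.70 (SE 0.061). TXNIP was at 262 and 279 CPM before insulin and at 154 and 180 CPM after 240 min, with no overlap. Its relative ARRDC4, named after its value was seen, was at 32.0 and 36.7 CPM before insulin and at 44.1 and 45.5 CPM after 240 min. The log2 fold change was 0.37 (SE 0.080, edgeR adjusted p = 0.00106), which was not recomputed under other processing. The 4 genes of the list that did not pass the filter were RGS16 with 0 counts, FGF21 with at most 1, ME1 with at most 3 and THRSP with at most 4 in a library.

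Of 8 genes of fructose and polyol handling, 6 were tested, and 1 rose and 0 fell (16.7%; edgeR, with 1 higher and 1 lower at an unadjusted p under 0.05), with a median of -0.04. GLYCTK, a glycerate kinase at the end of fructolysis, rose by 0.47 (SE 0.074), which was not past the test with ERCC scaling or with limma on TPM. The fructose transporter gene SLC2A5 had at most 3 counts in a library and GPD2 at most 8, so neither was tested. Of the genes of glycolysis and its control, 13 were tested, and 3 rose and 2 fell (38.5%), with a median of -0.02. PFKFB3 and PFKFB4, isoforms of the enzyme that makes and removes fructose 2,6-bisphosphate, rose by 0.80 (SE 0.20) and 0.54 (SE 0.092), while PFKFB1, the liver isoform, and PFKL, the liver phosphofructokinase, fell by 0.34 (SE 0.13) and 0.20 (SE 0.055) on the log2 scale. With ERCC scaling 0 genes of these last lists passed the test. PFKL did not pass with limma on TPM, and PFKFB1 did not pass with DESeq2, without a filter, with upper-quartile scaling or with only the times compared.

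Of 16 lipid droplet and VLDL genes, 13 were tested, and 4 rose and 3 fell (53.8%), with a median of 0.02 that was -0.10 with ERCC scaling. ABHD5, the coactivator of the lipase ATGL, rose by 0.53 (SE 0.098), and PNPLA2, which encodes ATGL itself and is the closest relative of PNPLA3 in the list, fell by 0.33 (SE 0.058) on the log2 scale. LPIN1, a phosphatidate phosphatase, rose by 0.41 (SE 0.060), and PLIN3, a lipid droplet coat protein, fell by 0.44 (SE 0.077). With ERCC scaling 1 gene of the list was called, and ABHD5 (adjusted p = 0.247), PNPLA2 (0.141) and LPIN1 (0.395) were not, while PLIN3 passed in all 11 alternatives. G0S2 with at most 2 counts, HSD17B13 with at most 12 and TM6SF1, the paralogue of TM6SF2, with 0 were not tested. Of 10 transcriptional regulators, all tested, 3 rose and 3 fell (60.0%), with a median of -0.06, and 2 were called with ERCC scaling. SREBF1 rose by 0.37 (SE 0.083) and HNF4A by 0.30 (SE 0.050), both not past the test with ERCC scaling, and NR0B2, the corepressor SHP, and NR1H2, the receptor LXRβ, fell by 0.67 (SE 0.085) and 0.65 (SE 0.10) on the log2 scale.

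Some of these calls rested on single libraries. Without replicate 2 at 0 min, 6 of the sugar-induced targets, 1 of the glycolytic genes and 3 of the regulators passed the test, and BHLHE40 (adjusted p = 0.187), PFKFB3 (0.0526), PFKL (0.0519) and SREBF1 (0.0588) did not. BHLHE40 also missed it without replicate 2 at 240 min (0.0503), and MGA without replicate 1 at 0 min (0.0519). MXD1 missed it without replicate 2 at 0 min (0.247) and without either 240 min library (0.161 and 0.0653), and PFKFB1 missed it without any one of the 0 and 240 min libraries (0.0775 to 0.159). Without replicate 1 at 240 min 7 of the sugar-induced targets passed. The median of the sugar-induced targets was 0.05 without replicate 2 at 0 min, and that of fructose handling was 0.08 without replicate 2 at 240 min.

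**Figure D4:**
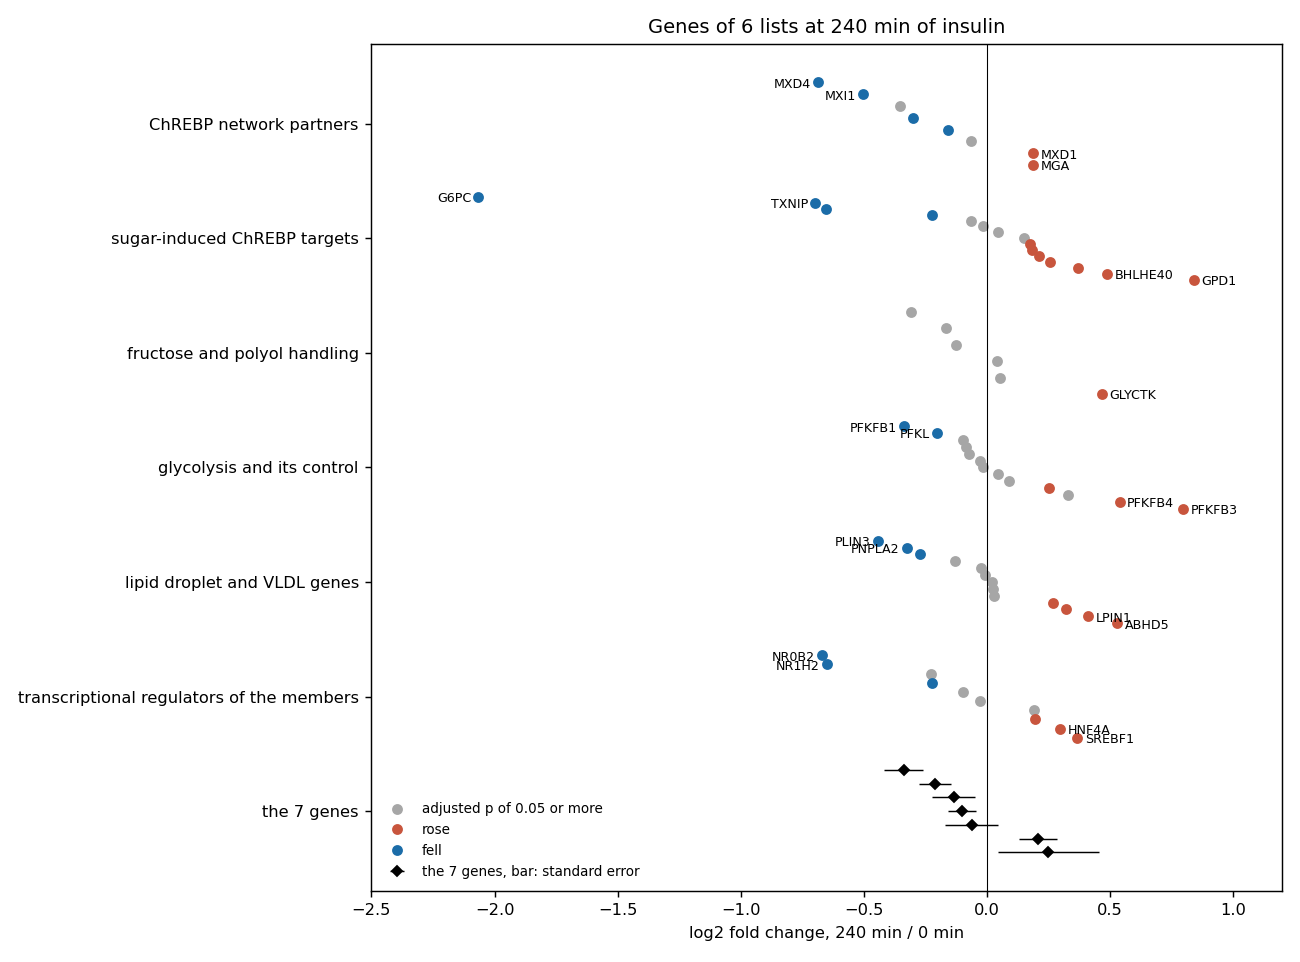
Log2 fold change at 240 min against 0 min (horizontal axis) of the tested genes of 6 lists and of the 7 genes (diamonds, bars give the standard error); red and blue points rose and fell at an adjusted p under 0.05 and grey points did not pass. All 6 lists but that of fructose handling held genes on both sides that passed the test, and the 7 genes lay between -0.34 and 0.25.

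The genes whose pattern over the 10 libraries was most like that of MLXIPL, by Pearson's r of log2 CPM among the 10387 genes whose mean reached 5 CPM, were IMPDH2 (r = 0.96), PEX26 (0.95), ADAR (0.95), RAB24 (0.95) and PIGBOS1 (0.94). The points share the same libraries and time course, and the r is a description. Of the other members, GCKR had r = 0.82 and rank 262. PKLR had 0.49, KHK 0.39, TM6SF2 -0.23, MLX -0.43 and PNPLA3 -0.47. Among the members themselves PKLR and KHK had r = 0.81, and GCKR and PNPLA3 had r = -0.67.

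IR peaks were compared with the loci of the 7 genes in hg19, in the single library, without a replicate. A peak lay within 5 kb of 1 of the 7 genes, MLXIPL, beside 15.7% of all genes tested. This peak lay in an intron of MLXIPL, overlapping 0 of 37 annotated exons. Its score of 25 ranked 1768 of 1971, against a median of 79 for all peaks, so with peaks of higher score alone 0 of the 7 genes had one, beside 8.78% of genes. With 20 kb allowed, PKLR and KHK were also near peaks, 3 of 7 beside 21.25% of genes. The KHK peak lay 5164 bases away within EMILIN1 and had a score of 805, and the PKLR peak lay 7155 bases away at the promoter of FDPS and had a score of 135. The nearest peak was 47.1 kb away from TM6SF2, 115.6 kb from GCKR, 159.1 kb from MLX and 1402.6 kb from PNPLA3.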

How the data were processed

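RNA-seq libraries of HepG2 cells at 5 times of insulin (2 per time) and a single IR ChIP-seq library were used. The authors trimmed single-end reads with Trim Galore 0.6.4, aligned them to hg19 with STAR 2.6.1d and counted them as reverse-stranded with featureCounts 1.6.4, and the deposited values are counts without normalization. The authors also deposited TPM from StringTie, and peaks of MACS2 2.2.7.1 on BWA 0.7.17-r1188 alignments with the deposited score and the HOMER annotation. The 92 ERCC transcripts took 1.59% to 2.36% of the counts of a library and were not used for library size or testing.

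The gene counts were scaled by TMM and fitted with edgeR 4.0.16 (R 4.3.3, filterByExpr by time, quasi-likelihood, all 10 libraries in one model, no block). A gene was called at an adjusted p (Benjamini-Hochberg) under 0.05. The fold change divided by the root of the F statistic gave its standard error. Sampling noise did not account for the differences between replicates (chi-square divided by its degrees of freedom, 2.80 to 6.30). Alternatives were DESeq2 1.42.0, no filter, at least 10 counts in every library, RLE, upper-quartile and ERCC scaling, only the times compared, a replicate block, limma 3.58.1 on log2(TPM + 1), log2(TPM + 0.1) and the genes whose mean TPM reached 1, and each library left out in turn. Peaks were assigned to gene bodies extended by 5 kb, with 1 kb, 20 kb, scores above the median and the HOMER gene as alternatives, in Python 3.11.15 with pandas 2.3.3. Figures used matplotlib 3.10.9.

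The members and lists were chosen with earlier results of these data known. Named are the 7 members, in each list the 2 largest rises and 2 largest falls among called genes whose mean reached 1 CPM, the genes that failed the filter, and the 5 genes most like MLXIPL. ARRDC4 was named outside this rule. At 5, 10 and 30 min a fold change is given for members with an unadjusted p under 0.05. The IR ChIP input was not analysed here, and 1 gene of a list and the sequence of 1 peak are not reported here.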

Additional observations from a re-analysis of the deposited data

How the results depend on the processing

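Each count of calls was recomputed under 11 other ways of processing and with each of the 10 libraries left out. So was each named fold change from 0 min, except that of ARRDC4. With 2 libraries per time, a call rests on few values, and no fit shows which library of a pair is the unusual one. At 240 min 1059 genes were called with ERCC scaling, which also left 0 members, and MLXIPL at -0.33. With it 2 genes of the network partners, 4 of the sugar-induced targets, 0 of fructose handling, 0 of glycolysis, 1 of the lipid droplet list and 2 of the regulators were called. Of the sugar-induced targets DESeq2 called 7 and limma 6 in each of its 3 forms, and of fructose handling limma called 0 in each, while no filter and a fit of only the times compared each called 2. Limma called 1 member at 240 min in each form, and without a filter 1 member was called at 30 min. Peaks gave 3 members within 20 kb and 0 above the median score. The cause of these differences was not tested.

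At 5 min 144 genes were called without a filter, 2 with ERCC scaling, 1 with DESeq2, 1 with only the times compared, and 1, 1 and 2 with limma. At 10 min the counts were 74 without a filter, 45 with only the times compared, and 1, 4 and 1 with limma. At 30 min they were 160 without a filter, 4 with ERCC scaling, and 9, 8 and 8 with limma. For the difference among 5, 10 and 30 min they were 309 without a filter, 9 with ERCC scaling, and 5, 7 and 7 with limma.

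With 1 library left out, genes called ranged from 3893 to 5785 at 240 min, 0 to 22 at 5 min, 9 to 24 at 10 min, 18 to 53 at 30 min and 10 to 61 among the early times. Counts moved by over 1.5 times without replicate 1 at 5 min (22 at 5 min), either 10 min library or replicate 2 at 0 min (9 to 12 at 10 min), replicate 1 at 0 min or replicate 2 at 30 min (18 and 20 at 30 min), and replicate 2 at 5 min, either 10 min library or replicate 1 at 30 min (10 to 30 among the early times). Members called at 240 min ranged from 1 to 3, and MLXIPL from -0.24 to -0.19. Genes called at 240 min ranged from 4 to 6 for the network partners, 6 to 11 for the sugar-induced targets, 1 to 2 for fructose handling, 1 to 5 for glycolysis, 6 to 7 for lipid droplets and 3 to 6 for the regulators.

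The deviations of replicate 1 correlated between times at -0.12 to 0.13, over 0.1 in 2 of 10 pairs. These low values do not settle whether replicates of the same number belonged together. With the replicate block 5845 genes were called at 240 min, 1 at 5 min, 21 at 10 min, 59 at 30 min and 70 among the early times, and the members called stayed at 3, 0, 0, 0 and 0.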
